A study of Mus musculus with 6 samples.

Results

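The 10 genes described here encode the core of antigen presentation by the mouse major histocompatibility complex (MHC). They were taken by symbol from the 32285 genes listed for every library, and all 10 were found. Class II members were H2-Aa, H2-Ab1, H2-Eb1, Cd74, H2-DMa, H2-DMb1 and Ciita. Class I members were H2-K1, H2-D1 and B2m. Their transcripts were counted in epithelial cells of ileal crypts, and 2 questions were put to the data: how their levels were distributed over the epithelial lineages and the lymphocytes caught with them, and whether they differed between the genotypes.

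The cells came from C57BL/6J mice, sex-matched and between 8 and 12 weeks old. Fpr2f/f mice (labelled WT) carry recombination sites around Fpr2, which encodes a formyl peptide receptor. Fpr2VKO mice carry the same Fpr2f/f alleles together with Villin-Cre, whose promoter is active in the intestinal epithelium, so lymphocytes and other non-epithelial cells are not its targets. Dissociated crypt cells were sorted for EpCAM, a surface protein of epithelial cells, and profiled on the MobiNova-100 droplet platform, with 3 libraries per genotype. The cells of each genotype came from 3 mice, as many as its libraries, and every p-value below measures the spread between these libraries.

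MHC class II molecules present peptides from ingested material to CD4+ T cells, and class I molecules present peptides made inside the cell to CD8+ T cells. Class II genes are switched on by the coactivator CIITA, constantly in professional antigen-presenting cells such as B cells and, after interferon gamma, in many epithelia including that of the intestine. Class I genes are made by nearly all nucleated cells, and resting mouse T cells make class I but not class II.

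The genes lie in a few places of the genome. In the mm10 (GRCm38) annotation, H2-Ab1 (ENSMUSG00000073421) spans chr17:34257689-34269419, H2-Aa (ENSMUSG00000036594) chr17:34282744-34287823 and H2-Eb1 (ENSMUSG00000060586) chr17:34305867-34316674. H2-DMa (ENSMUSG00000037649) spans chr17:34119541-34139101 and H2-DMb1 (ENSMUSG00000079547) chr17:34153072-34160230. H2-K1 (ENSMUSG00000061232) spans chr17:33996017-34000347 and H2-D1 (ENSMUSG00000073411) chr17:35262730-35267499. Outside this region, Ciita (ENSMUSG00000022504) spans chr16:10480059-10528418, B2m (ENSMUSG00000060802) chr2:122147686-122153083, and Cd74 (ENSMUSG00000024610) lies on chromosome 18. Counts are per gene, over exons or whole genes as the authors' software took them.

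Members of the class I family resemble each other. Of all stretches of 50 bases in its transcripts, H2-D1 shared 12.8% with other genes, mainly H2-Q1, H2-K1, H2-Q7 and H2-Q6. H2-K1 shared 9.63%, mainly with H2-Q10, H2-D1, H2-Q7 and H2-Q4. H2-DMb1 shared 22.7% with H2-DMb2, so the split between these genes is uncertain. H2-Aa shared 0.488%, and the other members shared none. The opposite strand of H2-Eb1, H2-DMa, Ciita and B2m also carries annotated genes, and the use of strand in counting was not stated. On the same strand, Mir5107 overlaps Cd74 and CR974462.3 overlaps H2-DMa.

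The promoters of 3 class II members carry a spaced pair of boxes, in letters written down from class II sequences. These letters were not matched at the class I promoters or at the class II member H2-DMa. Pairs with other letters or spacing were not searched for, so class I promoters are not said to lack a related pair. ATTGG alone was matched at H2-K1, H2-D1 and B2m. As examples, 3 promoters are shown, that of H2-K1 without the pair (RefSeq, GRCm38.p6, each printed 5′ to 3′ on the gene's strand and ending at or just before the start of transcription). In the class II promoters the capitals mark GNAAC and ATTGG with 27 or 28 bases between them, and in the class I promoter they mark GGGNTTCCC on either strand and the reverse complement of AANNGAAA. The region is chr17:34287824-34288013 on the minus strand for H2-Aa, chr17:34305677-34305866 on the plus strand for H2-Eb1, and chr17:34000348-34000537 on the minus strand for H2-K1.
H2-Aa: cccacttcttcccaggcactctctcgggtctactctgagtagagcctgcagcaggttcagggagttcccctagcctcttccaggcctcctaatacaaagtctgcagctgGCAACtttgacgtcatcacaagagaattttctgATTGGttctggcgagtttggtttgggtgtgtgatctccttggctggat
H2-Eb1: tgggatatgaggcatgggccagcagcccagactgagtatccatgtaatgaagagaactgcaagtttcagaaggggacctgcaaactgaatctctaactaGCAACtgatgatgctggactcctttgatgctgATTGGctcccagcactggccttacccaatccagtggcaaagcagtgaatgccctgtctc
H2-K1: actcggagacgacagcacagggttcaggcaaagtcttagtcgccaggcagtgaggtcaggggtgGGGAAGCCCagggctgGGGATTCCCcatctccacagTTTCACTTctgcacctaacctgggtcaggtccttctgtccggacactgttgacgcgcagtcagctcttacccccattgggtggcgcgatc

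RefSeq promoters of 7 of the 10 members were matched, and 250 bases before each start were searched on both strands. The spaced pair was found at H2-Aa, H2-Eb1 and H2-DMb1 and at none of the other members searched. It occurred at 105 of 27025 genes, or 0.389%, whereas ATTGG alone occurred at 37.5%. Its letters were written down from these class II sequences, so their match there and their absence elsewhere are descriptions. GGGNTTCCC was found at H2-K1 and H2-D1, on each strand once, and at 477 genes in all (1.77%), and AANNGAAA at H2-K1, H2-D1, B2m, H2-Aa and H2-DMa and at 23.9% of all genes. A match describes letters and is not a measured binding site.

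The 6 libraries held 90142126 to 189516114 UMIs (unique molecular identifiers, each marking 1 captured transcript). A barcode counted as a cell with at least 1000 UMIs, 500 genes and at most 20% mitochondrial UMIs, which left 16676 cells after doublet removal, 9903 from Fpr2f/f and 6773 from Fpr2VKO libraries. The mitochondrial limit removed 65.7% to 78.0% of the barcodes over the other limits in Fpr2f/f libraries and 76.1% to 90.1% in Fpr2VKO libraries. Median UMIs per cell were 2974 to 4512 in Fpr2f/f and 6257 to 6536 in Fpr2VKO libraries, so depth moved with genotype. Libraries shared 118 of 16557 distinct barcodes. Fpr2 had 0 UMIs in all 6 libraries, below a floor of 3 UMIs per library, so the genotype labels could not be checked on its transcript.

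Cells were clustered on genes other than the members and other H2- genes, and clusters were named from fixed marker lists with the ending "-like". Of 16364 epithelial cells, 277 were stem-like, 2816 TA-like (transit-amplifying, the dividing progeny of stem cells), 1044 enterocyte-like, 1208 Paneth-like, 1738 goblet-like, 406 enteroendocrine-like and 336 tuft-like. The other 8539 epithelial cells stayed unnamed. The EpCAM sort also held 277 T-like lymphocytes and 35 B- and plasma-like cells. UMIs were summed per library and class and given as CPM, the number of a gene's UMIs for every 1e6 UMIs of that class in the library, with means ± SD over libraries holding at least 20 cells. Differences between classes are descriptions, since the classes were made from transcripts of the same cells.

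Class II transcripts were highest in stem-like, enterocyte-like and TA-like cells and low in the secretory lineages. Summed over H2-Aa, H2-Ab1, H2-Eb1 and Cd74, the level was 1231 ± 439 CPM in stem-like cells (n = 5 libraries), 1086 ± 351 CPM in enterocyte-like cells and 918.2 ± 242 CPM in TA-like cells (n = 6 each). The ranges of these 3 classes overlapped, so their order is not fixed by these libraries. The lowest TA-like library, at 570.6 CPM, was above the highest tuft-like library, at 560.9 CPM. Tuft-like cells had 366.7 ± 123 CPM, goblet-like 235.1 ± 51.8 CPM, enteroendocrine-like 223 ± 104 CPM and Paneth-like 135.8 ± 22.02 CPM. Enterocyte-like exceeded Paneth-like cells in 6 of 6 libraries, by 5.51 to 10.5 times. The class II level of the unnamed cells, 697.9 ± 230 CPM, lay between those of TA-like and tuft-like cells, but their 8 clusters ran from 208.6 CPM in the Ghrl-led to 1172 CPM in the Fabp6- and Slc10a2-led cluster, pooled over libraries.

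The antigen-binding chains were each highest in stem-like, enterocyte-like and TA-like cells, in an order that differed between chains. H2-Aa, the alpha chain of the I-A molecule, had 133.7 ± 49.3 CPM in enterocyte-like and 131.2 ± 71.0 CPM in stem-like cells, against 13.65 ± 1.51 CPM in Paneth-like and 12.3 ± 3.05 CPM in goblet-like cells. H2-Ab1, its beta chain, had 267.9 ± 111 CPM in stem-like and 229.7 ± 74.9 CPM in enterocyte-like cells, and 30.95 ± 5.46 CPM in Paneth-like cells. H2-Eb1, the beta chain of the I-E molecule, had 200.3 ± 71.5 CPM in stem-like cells, above TA-like cells (121.3 ± 27.2 CPM) in 5 of 5 libraries and above enterocyte-like cells (116.2 ± 43.1 CPM) in 5 of 5. The alpha chain of I-E was not among the members, so H2-Eb1 transcripts do not show that the I-E molecule was made. For H2-Eb1 the ranges of stem-like and TA-like cells still overlapped. H2-Ab1 was the chain that goblet-like cells kept best relative to enterocyte-like cells, at 90.37 ± 12.7 CPM. The enterocyte-like level was 1.44 to 3.504 times the goblet-like level for H2-Ab1 and 4.12 to 10.5 times for H2-Eb1 in the same libraries.

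Cd74 encodes the invariant chain, which fills the peptide groove of new class II molecules and guides them to endosomes. Its level was 631.9 ± 193 CPM in stem-like, 606.6 ± 190 CPM in enterocyte-like and 499 ± 133 CPM in TA-like cells, then 213.4 ± 88.5 CPM in tuft-like and 75.88 ± 15.5 CPM in Paneth-like cells. Enterocyte-like exceeded TA-like cells in 6 of 6 libraries although the ranges overlapped. H2-DMa and H2-DMb1, the chains of the molecule that trades the invariant chain fragment for antigenic peptide, were highest in enterocyte-like cells at 42.94 ± 13.4 and 23.54 ± 6.14 CPM. They were lowest in Paneth-like cells, at 3.729 ± 1.17 and 2.786 ± 1.84 CPM. Ciita, the coactivator of class II genes, had 12.89 ± 4.80 CPM in enterocyte-like, 10.68 ± 5.88 CPM in stem-like and 8.206 ± 2.58 CPM in TA-like cells, against 1.628 ± 1.49 CPM in goblet-like and 1.165 ± 0.617 CPM in Paneth-like cells. Only 52 Ciita UMIs stood behind the Paneth-like and 27 behind the goblet-like value.

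**Figure D1:**
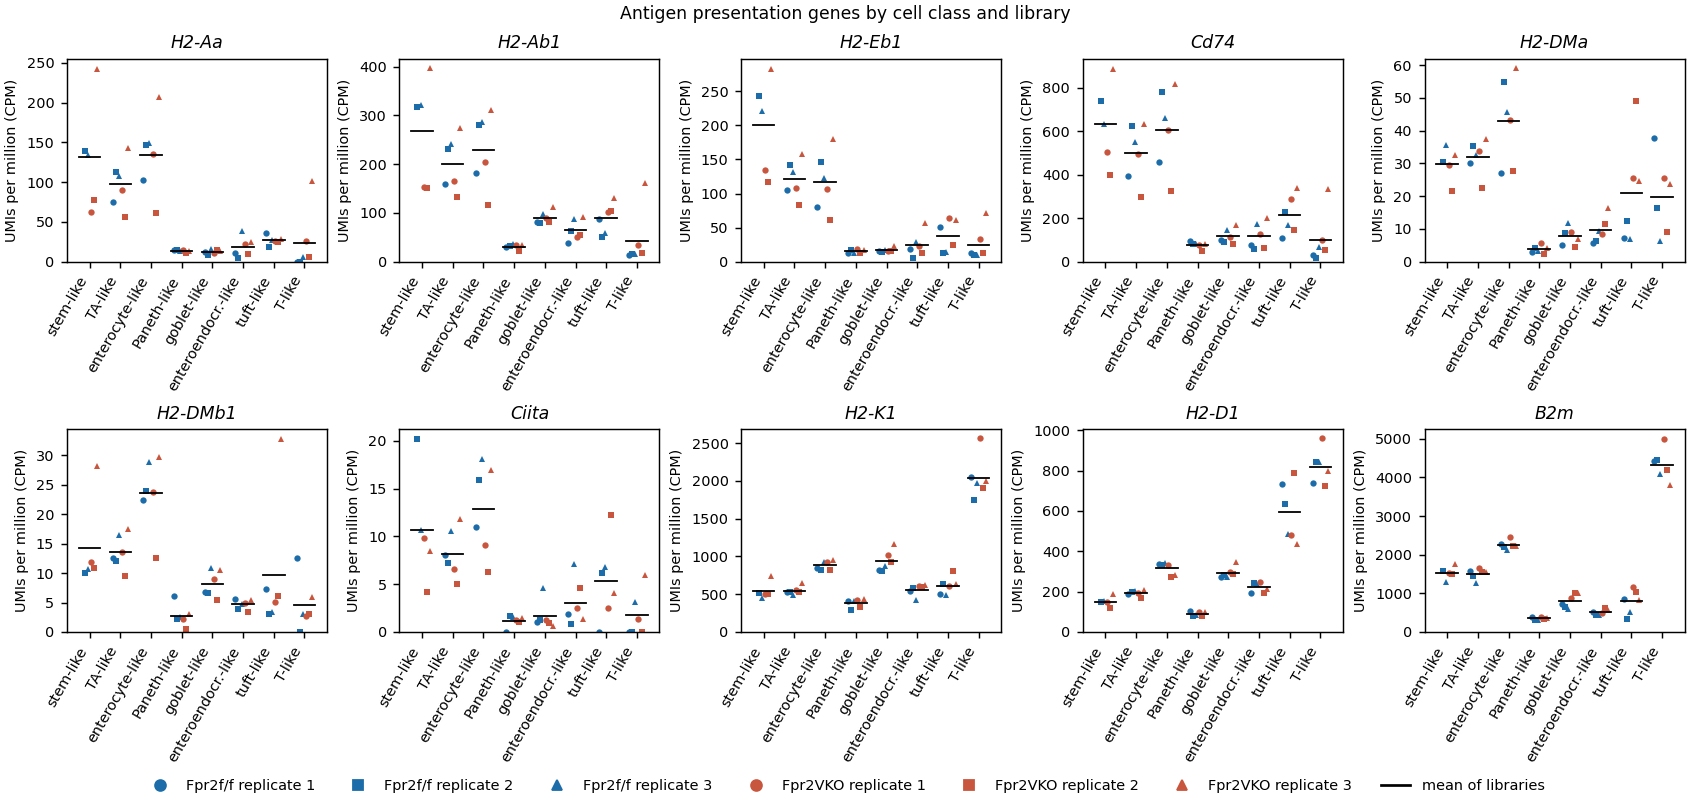
Level of each gene in CPM (linear axes from 0) by cell class; each point is 1 library (blue Fpr2f/f, red Fpr2VKO, shape for replicate) and the black line is the mean over libraries. Class II genes peak in stem-like, TA-like and enterocyte-like cells, with Cd74 at 606.6 ± 190 CPM in enterocyte-like cells, and the 3 class I genes are highest in T-like lymphocytes.

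Class I transcripts were spread differently over the epithelium. Summed over H2-K1, H2-D1 and B2m, enterocyte-like cells had 3447 ± 145 CPM, and no library of another epithelial class reached their lowest library. Most of these cells were deep. The shallow unnamed cluster led by Fabp6 and Slc10a2 (median 3386.5 UMIs) had 2055 CPM pooled over libraries. The Fabp6-led enterocyte-like cluster (median 24789 UMIs) had 3439 CPM. TA-like (2248 ± 168 CPM), stem-like (2214 ± 291 CPM), goblet-like (2044 ± 317 CPM) and tuft-like cells (1996 ± 421 CPM) overlapped each other. Enteroendocrine-like cells had 1296 ± 114 CPM and Paneth-like cells 826.6 ± 102 CPM. The class I sum of enterocyte-like cells was 3.78 to 4.996 times that of Paneth-like cells in the same libraries.

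The class I chains were not distributed alike. H2-K1, a classical heavy chain, reached 936.2 ± 134 CPM in goblet-like and 882.5 ± 58.4 CPM in enterocyte-like cells, each the higher in 3 of 6 libraries. The order of the means differed between the genotypes, and this difference in order was not tested. They were 837.2 CPM in goblet-like and 867.4 CPM in enterocyte-like cells of Fpr2f/f, and 1035 and 897.7 CPM of Fpr2VKO libraries. H2-D1, another classical heavy chain, had 593 ± 147 CPM in tuft-like cells and 315.8 ± 30.8 CPM in enterocyte-like cells. Tuft-like cells held more H2-D1 in 6 of 6 libraries, by 1.43 to 2.90 times, and the ranges did not overlap. B2m encodes beta-2 microglobulin, the light chain all class I molecules need, and went the other way. It had 2249 ± 113 CPM in enterocyte-like cells, above goblet-like (814.2 ± 177 CPM) and tuft-like cells (790.3 ± 312 CPM) in 6 of 6 libraries. Paneth-like cells were lowest for all 3 genes, with 385.4 ± 55.5 CPM of H2-K1, 91.26 ± 11.9 CPM of H2-D1 and 350 ± 43.1 CPM of B2m. In Paneth-like cells 7 Paneth markers alone made up 308428 to 366010 CPM, which lowers the share left to every other gene, and the part of this in the low values was not tested.

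Classes were not uniform inside. Of the enterocyte-like cells, a cluster led by Fabp6, an ileal bile acid binding protein, held 453 cells, and a cluster led by Reg1, a secreted lectin, held 568. In the Fabp6-led cluster the class II sum was 1414.9, 1945.7 and 1309.7 CPM in Fpr2f/f and 1828.7, 1377.0 and 1594.0 CPM in Fpr2VKO replicates 1 to 3. In the Reg1-led cluster it was 438.2, 817.9 and 888.8 CPM, and 567.7, 343.1 and 1444.9 CPM. Class II was higher in the Fabp6-led cluster in 6 of 6 libraries (means 1578 ± 260 and 750.1 ± 401 CPM), while the class I sum was close, at 3486 ± 286 and 3285 ± 124 CPM. The Fabp6-led cluster held 47, 74 and 131 cells in Fpr2f/f replicates 1 to 3 and 59, 59 and 83 in Fpr2VKO replicates 1 to 3, and the Reg1-led cluster 68, 74 and 55, and 88, 187 and 96. The Reg1-led cluster was the larger in every Fpr2VKO library and in Fpr2f/f replicate 1, and the Fabp6-led one in Fpr2f/f replicate 3 alone.

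Among the enterocyte-like cells 23 stood apart. Their cluster was led by Clca4a, Ly6m, Ada and Apoa4, and all 23 cells held Epcam UMIs. Pooled over libraries, the class II sum was 5556 CPM (95% exact Poisson interval 5168 to 5964) and the class I sum 19907 CPM (19168 to 20668). H2-K1 had 7908 CPM (7444 to 8392) and B2m 10143 CPM (9617 to 10690). Every cell held H2-K1, B2m and class II UMIs, and the top cell carried 12.3% of the class I and 19.4% of the class II UMIs. H2-DMa, H2-DMb1 and Ciita had only 3, 1 and 0 UMIs in these cells, or 21.8 CPM (4.505 to 63.8), 7.28 CPM (0.184 to 40.6) and at most 26.9 CPM, too few to place them against the class. Markers of B cells and myeloid cells, and Ptprc, the pan-leukocyte gene CD45, had 0 UMIs, and the T cell list had 3. The 23 cells came from 5 libraries, with 11 from Fpr2f/f replicate 3, and were too few for values per library. These intervals cover counting error only.

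Paneth-like cells split likewise. The Defa21-led cluster (787 cells) had a class II sum of 62.77 ± 19.4 CPM and a class I sum of 540.5 ± 88.5 CPM. The Rnase1-led cluster (421 cells) had 288.9 ± 67.8 and 1390 ± 38.4 CPM. Both sums were higher in the Rnase1-led cluster in 6 of 6 libraries. TA-like clusters had class I sums of 2375 ± 140 CPM (Cps1-led), 1141 ± 146 CPM (Cenpf-led) and 1331 ± 216 CPM (Hoxb6-led, 5 libraries). Goblet-like clusters had class I sums of 2135 ± 310 CPM (Clca1-led) and 947.8 ± 248 CPM (Ern2-led). Class II sums did not follow this order. They were 219.9 ± 48.5 CPM in the Clca1-led and 407.8 ± 124 CPM in the Ern2-led cluster. In the TA-like clusters they were 926.5 ± 248 CPM (Cps1-led), 720.5 ± 243 CPM (Cenpf-led) and 1136 ± 121 CPM (Hoxb6-led, 5 libraries). Since UMIs were summed per class, deeper cells weigh more in the class values.

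**Figure D2:**
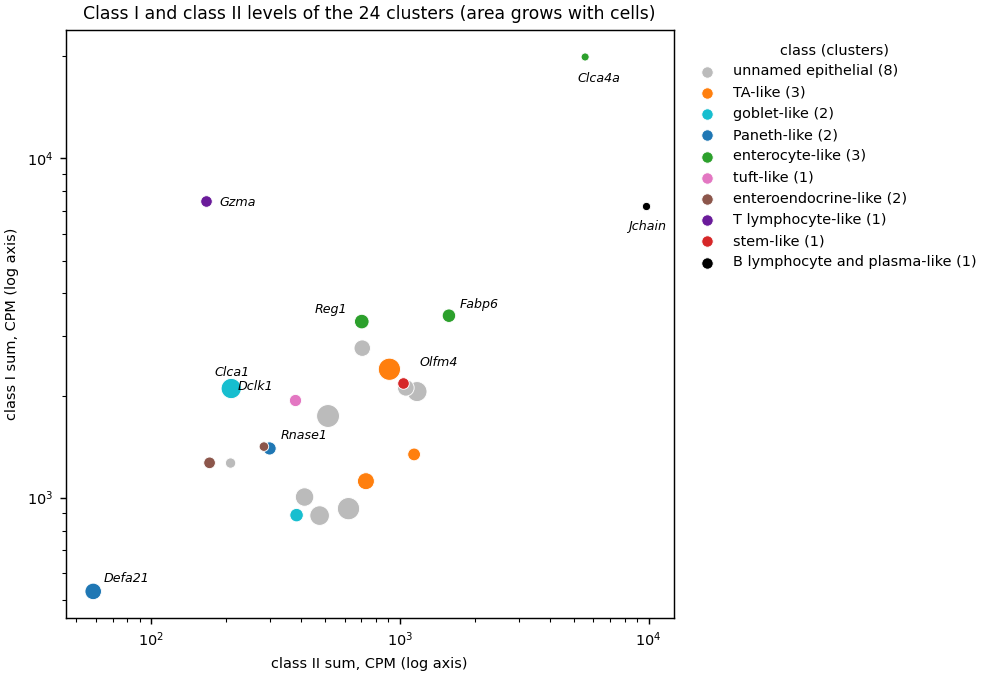
Class I sum against class II sum of the 24 clusters, pooled over libraries, in CPM on log axes; the area of a point grows with its cells, colours give the class, and some points carry the cluster's first leading gene. The Clca4a-led enterocyte-like cluster has 19907 CPM of class I transcripts and the Defa21-led Paneth-like cluster is lowest on both axes.

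Depth differed between the classes, with medians from 2616 UMIs in tuft-like to 28015 UMIs in enterocyte-like cells. In cells with at least 10000 UMIs only, class II sums were 1199 ± 491 CPM in stem-like (4 libraries), 1044 ± 349 CPM in enterocyte-like and 924.9 ± 247 CPM in TA-like cells. They were 214.7 ± 36.8 CPM in goblet-like and 119.8 ± 16.8 CPM in Paneth-like cells. Among these 5 classes the same were high and low in deep cells. Only 26 tuft-like cells were as deep, too few for values per library. Pooled, their class II sum was 614.5 CPM (95% exact Poisson interval 554.96 to 678.73), against 380.5 CPM (350.4 to 412.4) over all tuft-like cells. Their H2-D1 was 383.9 CPM (337.1 to 435.3), against 561.4 CPM over all tuft-like cells and 301.2 CPM (294.7 to 307.7) in deep enterocyte-like cells. B2m of the deep tuft-like cells was 1311 CPM, against 778.4 CPM over all of them, so the tuft-like levels moved with depth. Depth also went with B2m inside TA-like cells. It had 1629 ± 102 CPM in their Cps1-led cluster (median 32925 UMIs) and 528.7 ± 69.1 CPM in the Cenpf-led one (3733 UMIs). In the unnamed Fabp6- and Slc10a2-led cluster (3386.5 UMIs) pooled B2m was 717.5 CPM and H2-K1 1029 CPM. They were 2208 and 889.1 CPM in the Fabp6-led enterocyte-like cluster (24789 UMIs). The shallow Clca4a-led cluster (5361 UMIs) went the other way, with 10143 CPM of B2m. The part of depth in the enterocyte-like class I values was not tested. In cells with at least 10000 UMIs the class I sum was 3360 ± 201 CPM in enterocyte-like and 2351 ± 154 CPM in TA-like cells. B2m in these deep cells was 2236 ± 149 CPM in enterocyte-like and 946.4 ± 186 CPM in goblet-like cells.

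Per cell, class II was found most often in stem-like, enterocyte-like and TA-like cells. A class II UMI here is one of H2-Aa, H2-Ab1, H2-Eb1 or Cd74, the genes of the class II sum. With each cell thinned to 1000 UMIs, a class II UMI was found in 66.3% ± 16.2 of stem-like, 58.2% ± 14.6 of enterocyte-like and 51.7% ± 9.59 of TA-like cells. The share was 21.6% ± 7.44 in goblet-like, 18.8% ± 5.47 in enteroendocrine-like, 17.4% ± 5.48 in Paneth-like and 15.9% ± 8.98 in tuft-like cells. T-like lymphocytes had 6.02% ± 3.16, and whether this share is background was not tested. Not thinned, the shares were 76.5% ± 9.13 in all epithelial cells (median 4778.5 UMIs) and 30.2% ± 12.5 in T-like cells (median 5887 UMIs). With cells thinned to 3000 UMIs, shallower ones left out, the shares rose in every class and tuft-like cells changed rank. A class II UMI was then found in 89.4% ± 10.7 of stem-like (5 libraries), 81.4% ± 9.79 of TA-like and 79.7% ± 13.8 of enterocyte-like cells, in 44.6% ± 0.652 of tuft-like cells (3 libraries), in 44.0% ± 8.80 of goblet-like, 34.99% ± 12.7 of enteroendocrine-like and 34.5% ± 8.68 of Paneth-like cells, and in 16.9% ± 6.71 of T-like cells (5 libraries). At this depth 30.1% of enterocyte-like cells held at least 5 class II UMIs and 1 cell held 43. At the same depth 66.2% of Paneth-like cells held none.

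T-like lymphocytes held more class I and less of the class II sum than the epithelium. T-like cells were 1.04%, 0.990% and 1.88% of the cells in Fpr2f/f replicates 1 to 3 and 3.64%, 1.92% and 1.09% in Fpr2VKO replicates 1 to 3. The genotypes overlapped, and the difference of 0.912 percentage points had p = 0.2 (exact two-sided permutation test, where 3 against 3 libraries cannot go below 0.1). The 12 T cell markers summed to 37718 to 65975 CPM in these cells and to 3.96 to 15.8 CPM in epithelial cells.

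All 3 class I members were higher in T-like lymphocytes than in the epithelial cells of the same library, in 6 of 6 libraries. Over all 16737 genes with at least 60 UMIs, 16.1% were higher in T-like cells in 6 libraries and 31.3% were lower. H2-K1 had 2049.7, 1747.8 and 1966.4 CPM in T-like cells of Fpr2f/f and 2565.8, 1902.4 and 1996.4 CPM of Fpr2VKO libraries. The epithelial cells had 588.9, 542.8 and 608.8 CPM, and 636.4, 573.2 and 693.6 CPM. The lowest T-like library was above the highest epithelial one, and within libraries the ratio ran from 2.88 to 4.03.

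H2-D1 had 737.9, 842.8 and 840.5 CPM in T-like cells of Fpr2f/f and 959.5, 721.4 and 796.2 CPM of Fpr2VKO libraries, which was 3.29 to 4.29 times the epithelial value. B2m had 4414.8, 4453.2 and 4083.4 CPM, and 5006.0, 4203.5 and 3814.6 CPM, which was 2.90 to 4.66 times the epithelial value. No T-like library overlapped the epithelial libraries for either gene. Against enterocyte-like cells, the epithelial class richest in B2m, T-like cells held 1.72 to 2.03 times as much. H2-D1 was nearer in tuft-like cells, which exceeded T-like cells in 1 of 6 libraries.

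The class II sum ran the other way. It was 577.6, 664.6 and 773.5 CPM in epithelial cells of Fpr2f/f and 636.2, 413.9 and 941.8 CPM of Fpr2VKO libraries. In T-like cells it was 56.8, 42.6 and 97.2 CPM, and 192.4, 88.3 and 665.5 CPM. T-like cells were lower in 6 of 6 libraries, from 6.41% to 70.7% of the epithelial level. The low members did not all share this. H2-DMa in T-like cells stood at 161% of the epithelial level in Fpr2f/f replicate 1 and at 22.6% to 97.6% in the other 5 libraries, and H2-DMb1 at 107% in that library and at 0 to 39.2% in the others. The class II sum of T-like cells was also below that of the free RNA of their own library (barcodes under 100 UMIs), which was 331.8, 440.7 and 548.5 CPM, and 382.4, 274.5 and 846.3 CPM. H2-Ab1, H2-Eb1, Cd74 and Ciita were below the free RNA in 6 of 6 libraries as well, whereas H2-DMa was above it in 2, and H2-Aa and H2-DMb1 in 1 each. The part of free RNA in the T-like class II sum was not tested, and the sum is not read here as expression.

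In 2 libraries most class II UMIs of T-like cells lay in 1 cell. Of 277 T-like cells 90 held a class II UMI (H2-Aa, H2-Ab1, H2-Eb1 or Cd74), 338 UMIs in all. In Fpr2VKO replicate 3, 95 of 112 class II UMIs lay in 1 of 20 cells, and that cell also held 72 Epcam UMIs. In Fpr2VKO replicate 1, 87 of 144 lay in 1 of 81 cells, which held 1 Epcam UMI. In the other 4 libraries the top cell held 15.4% to 37.9% of 9 to 31 class II UMIs. In T-like cells of Fpr2VKO replicate 3, Epcam and the 7 enterocyte markers stood at 43.7% and 101% of the epithelial level, while the goblet, stem and Paneth lists stood at 2.45%, 4.63% and 2.27%. In the other 5 libraries Epcam and the enterocyte markers were at 8.32% to 24.3% and 3.28% to 9.04%, and the class II sum at 6.41% to 30.2%. In Fpr2f/f replicates 1 to 3 and Fpr2VKO replicates 1 and 2 the class II sum stood at 9.83%, 6.41%, 12.6%, 30.2% and 21.3%. The enterocyte markers stood at 9.04%, 3.28%, 5.16%, 8.21% and 7.19% there, and the goblet list at 23.3%, 2.49%, 2.93%, 5.36% and 24.3%. Epcam stood at 8.32%, 9.92%, 13.2%, 13.3% and 24.3% in the same libraries. The part of epithelial RNA in the T-like class II sum was not tested. Of the B cell and plasma list, 5 of 6 genes had 0 UMIs in T-like cells. The 8 myeloid markers, a list for another cell type that makes class II, summed to 12.6 to 67.0 CPM in T-like and 2.00 to 2.72 CPM in epithelial cells, and 5 of the 8 (Csf1r, C1qa, C1qb, C1qc and Adgre1) had 0 UMIs in T-like cells. The part of these cell types in the T-like class II value was not tested.

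Goblet-like, enteroendocrine-like and Paneth-like cells were below the free RNA for the class II sum in 6 of 6 libraries as well. Pooled over libraries, the 12 T cell markers stood at 9.95, 6.83 and 12.3 CPM in these classes and at 346 CPM in the free RNA. The part of free RNA in the class II values of these classes was not tested. For the class II sum goblet-like cells were above T-like cells in 5 of 6 libraries and Paneth-like cells in 4 of 6. H2-Ab1 on its own was above the free RNA in 4 of 6 libraries in goblet-like cells. Enterocyte-like cells were above the free RNA for the class II sum in 6 of 6, by 1.79 to 3.07 times, as were TA-like cells in 6 of 6, stem-like in 5 of 5 and tuft-like in 2 of 6. For the class I sum only Paneth-like cells of these named classes were below the free RNA (988.3 to 1291.4 CPM) in 6 of 6 libraries, while enterocyte-like cells were 2.67 to 3.40 times above it.

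The 35 B- and plasma-like cells were set beside the other classes for both routes. Their leading genes included Jchain, Ighm, Igha and Siglech, and 37.1% of these cells held Epcam UMIs. Whether they are a mix of cell types was not tested. Their class II sum was 9763 CPM (95% exact Poisson interval 9429 to 10105), with 4181 CPM of Cd74, 2521 CPM of H2-Aa and 36.2 CPM of Ciita, and their class I sum was 7224 CPM (6937 to 7519). These values are pooled over libraries, which held 2 to 10 such cells each.

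**Figure D3:**
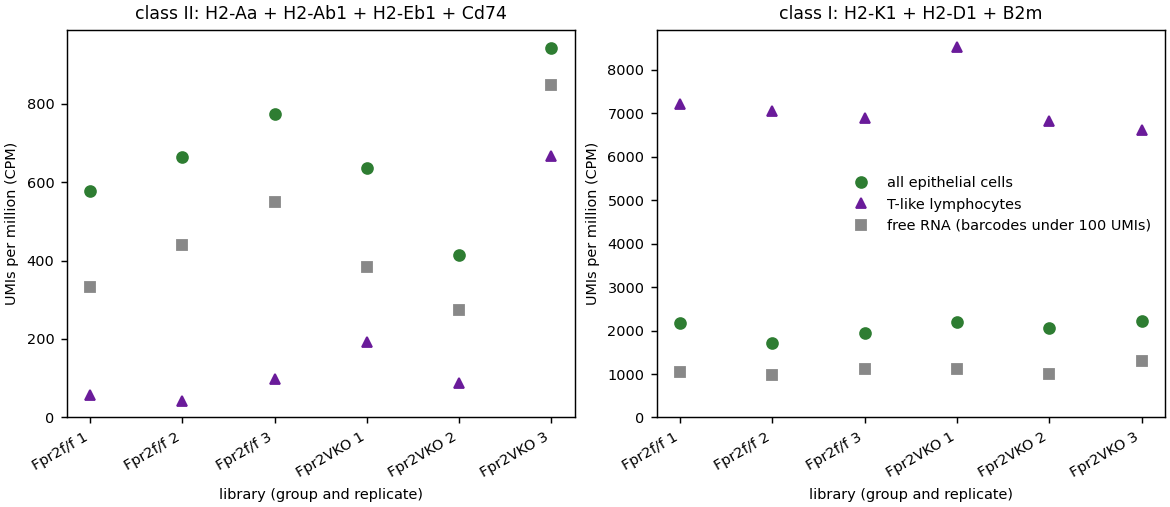
Class II sum (left) and class I sum (right) in CPM, on linear axes from 0, for all epithelial cells (green circles), T-like lymphocytes (purple triangles) and free RNA (grey squares), 1 point per library. Within each library T-like cells lie below both other groups for class II, although the highest T-like point, at 665.5 CPM, is above 4 epithelial points, and they lie at 6607 to 8531 CPM for class I, above the epithelium in all 6 libraries.

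The wider pathway was compared in the same way, beside the 16.1% of all genes that were higher and the 31.3% that were lower in T-like cells in 6 libraries. Shares are given over the genes of each list with at least 60 UMIs, as for all genes. These lists were chosen for the pathway, and the genes named from them were picked after their values were seen. Of 13 class I and class I-like genes 12 had that many, and of these 6 were higher in T-like cells in 6 libraries (50%) and 4 were lower (33.3%), the latter near the share of all genes. H2-Q7, a nonclassical class I gene, had 501 ± 66.4 CPM in T-like and 8.12 ± 3.09 CPM in epithelial cells. H2-Q2 of the same cluster went the other way, at 13.6 ± 22.8 against 98.3 ± 16.9 CPM, with 309 ± 63.1 CPM in enterocyte-like cells. These Q-region genes resemble each other, so the split of reads between them is uncertain.

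Of 13 genes for peptide supply and loading, 3 were higher (23.1%) and 2 lower (15.4%) in T-like cells in 6 libraries, and 10 had their highest epithelial level in enterocyte-like cells, where 12.3% of all genes did. Tapbp, which holds class I at the peptide transporter, had 159 ± 32.3 CPM in T-like, 65.7 ± 4.75 CPM in epithelial and 105 ± 7.38 CPM in enterocyte-like cells. Psmb8, an immunoproteasome subunit, had 145 ± 15.3 CPM in T-like and 113 ± 18.5 CPM in enterocyte-like cells. Of 11 other genes of the class II route only 6 had at least 60 UMIs, and of these none was higher in T-like cells in 6 libraries and 2 were lower (33.3%), near the share of all genes. Ifi30, the thiol reductase of the endosome, had 29.6 ± 24.2 CPM in T-like and 162 ± 19.5 CPM in epithelial cells.

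Of 12 regulators, 7 were higher (58.3%) and 1 lower (8.33%) in T-like cells in 6 libraries. Nlrc5, the class I counterpart of Ciita, had 67.0 ± 21.9 CPM in T-like and 3.78 ± 1.015 CPM in epithelial cells. Ifngr1, a chain of the interferon gamma receptor, had 450 ± 85.9 CPM in T-like and 82.6 ± 3.37 CPM in epithelial cells. Ifngr2, the other chain, was lower in T-like cells, at 9.40 ± 10.8 against 43.0 ± 4.17 CPM. Ifng itself, the interferon gamma gene, had 7 UMIs in 6 of 277 T-like cells and 1 UMI in 16364 epithelial cells.

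Over 47 sums of epithelial classes by library, the genes whose level followed the class II sum most closely among 6376 with a mean of at least 20 CPM were Otc (Pearson r = 0.925), Cftr (0.921), Tinag (0.919), Tfrc (0.917) and Fgfbp1 (0.909). Otc encodes a urea cycle enzyme, Cftr a chloride channel and Tfrc the transferrin receptor. The members H2-DMa, H2-DMb1 and Ciita followed the same sum with r of 0.912, 0.852 and 0.816, and B2m with 0.858. H2-K1 and H2-D1 did so with 0.292 and 0.193. For the class I sum the closest were Decr1 (0.944), Uqcrh (0.940), Txndc17 (0.933), Ndufb9 (0.931) and Myl12a (0.927). These correlations describe log2(CPM + 1) values whose points share libraries and depth.

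Single libraries differed widely in class II. Over all epithelial cells, H2-Aa was 54.9, 58.7 and 76.0 CPM in Fpr2f/f and 62.2, 40.2 and 109.6 CPM in Fpr2VKO libraries, and Cd74 was 327.3, 391.9 and 436.7 CPM, and 376.8, 226.2 and 508.8 CPM. Fpr2VKO replicate 3 was highest and Fpr2VKO replicate 2 lowest for both genes, so the Fpr2VKO libraries enclosed the Fpr2f/f ones. Across 8 epithelial classes, the unnamed cells included, the class II sum was highest in Fpr2VKO replicate 3 in 7 and lowest in Fpr2VKO replicate 2 in 5. The highest library stood at 2.28 times the lowest for the class II sum of all epithelial cells and at 1.30 times for the class I sum.

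No member passed the test between genotypes in any cell set. With edgeR's quasi-likelihood test and Benjamini-Hochberg adjustment over all genes, 0 of 83 tests of members over 10 cell sets had an adjusted p under 0.05, 5 had an unadjusted p under 0.05, and DESeq2 called 1. Over all genes of the 10 cell sets 6.59% of tests had an unadjusted p under 0.05. The share of all genes that DESeq2 called over these sets is not given here. In all epithelial cells 10 of 10 members were tested and 0 were called, none of them had an unadjusted p under 0.05, and DESeq2 called none. There 0.0182% of all 16500 genes were called and 9.02% had an unadjusted p under 0.05. The median log2 fold change of the members (Fpr2VKO against Fpr2f/f) was -0.0046, beside -0.0031 for all genes tested.

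The intervals show what these libraries could resolve. In all epithelial cells the log2 fold change of H2-Aa was 0.19 with a 95% confidence interval from -0.75 to 1.13, and that of Cd74 was -0.03 from -0.64 to 0.59. H2-Ab1 had -0.02 from -0.71 to 0.67 and H2-Eb1 0.12 from -0.48 to 0.72. Class I was bounded more tightly, with H2-K1 at 0.17 from -0.08 to 0.43 and B2m at 0.26 from -0.02 to 0.55. B2m was 1360.0, 955.2 and 1109.0 CPM in Fpr2f/f and 1336.8, 1303.5 and 1314.4 CPM in Fpr2VKO epithelium, so the groups overlapped through Fpr2f/f replicate 1. Over the same cells the stem markers (954.2 to 1296 CPM in Fpr2f/f, 2111 to 2379 CPM in Fpr2VKO) were higher in Fpr2VKO without overlap. So were the enterocyte markers (1497 to 1815 and 2001 to 2962 CPM). The part of the mix of classes in these values was not tested.

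B2m in goblet-like cells was nearest to a call. It had 734.3, 656.0 and 601.6 CPM in Fpr2f/f and 874.3, 1006.7 and 1012.6 CPM in Fpr2VKO libraries, and the groups did not overlap. In goblet-like cells 7.53% of all genes tested were higher in Fpr2VKO without overlap, 0.156% were called and 7.59% had an unadjusted p under 0.05. The log2 fold change was 0.51 (SE 0.12, 95% interval 0.27 to 0.75) with an adjusted p of 0.0705 by edgeR's quasi-likelihood test with Benjamini-Hochberg adjustment. It passed by DESeq2 (adjusted p 0.000634), with no filter on low counts (edgeR 0.0123), under the replicate block (edgeR 0.0143) and without Fpr2f/f replicate 1 (edgeR 0.0228). Each of these settings also called more genes than the main fit in all epithelial cells. The shares of all genes they called in goblet-like cells are not given here, so these calls are not read as a result about B2m. Among goblet-like cells of at least 3000 UMIs the log2 fold change of B2m fell to 0.37 (edgeR, adjusted p 0.483). Goblet-like cells had median depths of 2421.5, 5120.0 and 3487 UMIs in Fpr2f/f and 4938, 4775 and 4292.5 UMIs in Fpr2VKO libraries. The 7 enterocyte markers in goblet-like cells were also higher without overlap, at 1196, 1034 and 965.2 CPM in Fpr2f/f and 1378, 1338 and 1501 CPM in Fpr2VKO libraries, and their part in the B2m difference was not tested. Over 16 alternatives the sign of B2m stayed the same, with log2 fold changes of 0.37 to 0.58 and adjusted p from 0.000634 to 0.483.

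By cluster, goblet-like B2m did not overlap between genotypes in the Clca1-led cluster (635.1 to 780.8 CPM in Fpr2f/f, 914.9 to 1048.6 CPM in Fpr2VKO). It overlapped in the Ern2-led cluster, at 287.5 to 326.6 and 262.1 to 557.4 CPM. H2-K1 in goblet-like cells was 821.5, 811.1 and 879.0 CPM in Fpr2f/f and 1012.6, 930.2 and 1163.0 CPM in Fpr2VKO libraries. Its groups did not overlap either, with a log2 fold change of 0.28 and an adjusted p of 0.519 (edgeR). H2-D1 in goblet-like cells was also higher without overlap, by 0.14 (edgeR, adjusted p 0.842).

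Of the 83 tests, 6 had groups that did not overlap, all higher in Fpr2VKO. Beside the 3 goblet-like ones these were H2-K1 in TA-like cells, where 5.07% of all genes did so, H2-K1 in enteroendocrine-like cells (3.94%) and H2-Ab1 in tuft-like cells (11%). In TA-like cells the stem markers (2456, 2209 and 2842 CPM in Fpr2f/f, 3999, 3661 and 4583 CPM in Fpr2VKO libraries) were also higher without overlap. So were the enterocyte markers (714.5, 655.5 and 531.6, and 854.9, 888.4 and 858.6 CPM). Their part in the H2-K1 difference was not tested. Of the 17 cases in which a member was too low to be tested, 4 also had groups that did not overlap. Among all genes below the filter with at least 30 UMIs, groups did not overlap in 22.7% in stem-like, 14.4% in tuft-like and 10.3% in T-like cells. Ciita in stem-like cells was lower in Fpr2VKO, at 15.5 CPM in Fpr2f/f (2 libraries) and 7.50 CPM in Fpr2VKO on 49 UMIs, and H2-DMb1 in stem-like, H2-DMa in tuft-like and H2-Ab1 in T-like cells were higher. In tuft-like cells, of which libraries held few and shallow ones, 0.22% of genes were called and 9.61% had an unadjusted p under 0.05. There H2-Ab1 was 87.2, 49.5 and 57.9 CPM in Fpr2f/f and 102.0, 104.4 and 131.0 CPM in Fpr2VKO libraries, on 134 UMIs in all. Its log2 fold change was 0.73 with an adjusted p of 0.517 (edgeR's quasi-likelihood test, Benjamini-Hochberg). H2-Eb1 (1.19, adjusted p 0.508) and B2m (0.74, adjusted p 0.446) overlapped between genotypes and did not pass in the same fit. The 6 TA markers in tuft-like cells were also higher in Fpr2VKO without overlap. They had 218.1, 256.8 and 276.1 CPM in Fpr2f/f and 527.9, 694.2 and 679.6 CPM in Fpr2VKO libraries. Their part in these tuft-like differences was not tested.

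In enterocyte-like cells 10 members were tested and 0 called by edgeR, none with an unadjusted p under 0.05, where 0.0189% of all genes were called and 6.04% had an unadjusted p under 0.05. Ciita had 10.96, 15.90 and 18.12 CPM in Fpr2f/f and 9.08, 6.28 and 16.99 CPM in Fpr2VKO libraries, and the groups overlapped. In stem-like cells, where Fpr2f/f replicate 1 had 12 cells and was left out of the fit, 8 members were tested and 0 called (0.0127% of all genes). There H2-Ab1, at a log2 fold change of -0.53, was called without Fpr2VKO replicate 3 (-1.06, edgeR adjusted p 0.0253) and B2m, at 0.13, with a mitochondrial limit of 40% (0.64, edgeR adjusted p 0.00279). The shares of all genes called in stem-like cells under these settings are not given here. In TA-like, Paneth-like, enteroendocrine-like and unnamed cells the counts were 0 of 10, 0 of 9, 0 of 7 and 0 of 10, with 0.135%, 0.00966%, 0.0109% and 0.00769% of all genes called. Fewer cells of a subtype and less RNA per cell cannot be told apart in such sums.

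In T-like lymphocytes only Cd74, H2-K1, H2-D1 and B2m held enough UMIs for the test, and 0 of 4 passed, as did 0% of all 4853 genes. Cd74 was 31.5, 16.4 and 65.9 CPM in Fpr2f/f and 98.9, 51.7 and 332.7 CPM in Fpr2VKO libraries. The groups overlapped and the log2 fold change was 1.89 (95% interval -0.44 to 4.23, edgeR adjusted p 0.989). It was called under the replicate block (2.02, edgeR adjusted p 0.0275) and with no filter on low counts (1.86, 0.00952), where H2-Aa was called too (3.68, edgeR adjusted p 0.0181). The shares of all genes called in T-like cells under these settings are not given here. H2-Aa was at 0 UMIs in Fpr2f/f replicates 1 and 2 and at 101.0 CPM in Fpr2VKO replicate 3, the library in which 1 cell held most class II UMIs. B2m differed by 0.02 and H2-K1 by 0.18 on the log2 scale.

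The wider lists gave the same count. Over 10 cell sets 330 tests of the 4 pathway lists gave 0 calls by edgeR, 26 with an unadjusted p under 0.05, and 0 by DESeq2. That is 7.88% of these tests, near the 6.59% over all genes. In all epithelial cells 44 of these genes were tested, 4 had an unadjusted p under 0.05 and 0 were called by either tool. The median log2 fold change there was 0.15 for class I and class I-like genes, 0.06 for peptide loading, 0.03 for the class II route and 0.04 for the regulators.

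**Figure D4:**
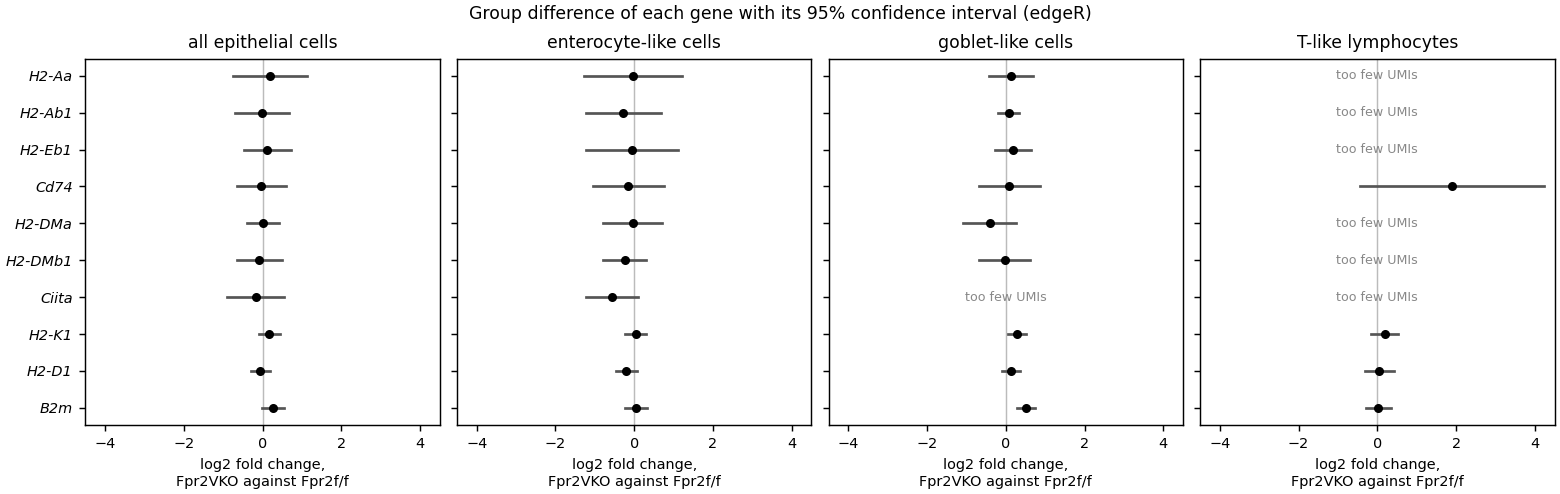
Log2 fold change (Fpr2VKO against Fpr2f/f) of each gene with its 95% confidence interval from edgeR, in 4 cell sets; "too few UMIs" marks genes below the filter. B2m in goblet-like cells, at 0.51 (0.27 to 0.75), and H2-K1 there, at 0.28, have intervals above 0 before adjustment over all genes.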

How the data were processed

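Single-cell RNA-seq libraries of EpCAM-sorted ileal crypt cells were analysed from the deposited matrices of raw UMI counts per gene and barcode, which precede cell calling. The authors aligned reads to mm10 and counted UMIs with MobiVision 2.1. The submitters' processing notes also name Seurat 4.0.0, used after these matrices. The annotation version was not given in the sources used here.

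Total counts and filters are given with the results. Cells with most artificial doublets near them (25% added) were removed as doublets, 0.8% for each 1000 cells in a library. After log normalization, 2000 variable genes (members and H2- genes left out) gave 30 components. Mutual nearest neighbours brought the libraries together, and Leiden clustering used 20 neighbours and resolution 1 (Python 3.11.15, scanpy 1.11.5, leidenalg 0.10.2). A class name needed a mean marker log2 fold of at least 1, with 3 markers higher and detected in 10% of cells. This limit was raised from 0.5 after the clusters were seen and before the members' levels by class. It left 3 clusters unnamed that the lower limit names: the Creb3l3-led (13.6% of Fpr2f/f and 5.34% of Fpr2VKO cells), the Gphn-led (11.5% and 6.81%) and the cluster of 1035 cells with histone genes (7.57% and 4.21%).

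Counts were summed per library and class. Genotypes were compared with edgeR 4.0.16 (TMM, filterByExpr, quasi-likelihood test; R 4.3.3) on all genes, and DESeq2 1.42.0 was an alternative. On data simulated for all epithelial cells (16500 genes), 81% of changes of log2 size 1 and 95% of size 2 were recovered, and 51% and 86% for T-like cells (4853 genes). The simulation gave every gene the same fixed spread between libraries. In all epithelial cells the real SD was 35.7% of the mean for H2-Aa and 13.2% for B2m. These rates therefore do not give the power for the class II members. No pair of libraries of a genotype agreed within sampling noise. Intervals on pooled counts are exact Poisson. The rule named the members, pathway genes that passed (there were none) and the 5 genes most like each sum, and the pathway genes named were chosen after their values were seen. The members and lists were chosen with earlier results of these data known. The values of a gene on the list of regulators are not reported here.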

Additional observations from a re-analysis of the deposited data

How the results depend on the processing

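The count of members called was the reported 0 in 149 settings and differed in 8. In stem-like cells 1 was called without Fpr2VKO replicate 3 (H2-Ab1, log2 fold change -1.06; range over left-out libraries 0 to 1) and 1 with a mitochondrial limit of 40% (B2m, 0.64). In goblet-like cells 1 was called, B2m, by DESeq2, with no filter, under the replicate block and without Fpr2f/f replicate 1 (0 to 1 over left-out libraries). In T-like cells 2 were called with no filter (H2-Aa and Cd74) and 1 under the replicate block (Cd74, 2.02). Over all genes, 3 were called in all epithelial cells, against 101 by DESeq2, 154 with no filter, 23 under the replicate block, 117 with a mitochondrial limit of 10%, 7 with doublets kept, 1 with a minimum of 3000 UMIs and 1 to 141 over left-out libraries (141 without Fpr2f/f replicate 1). The causes were not tested, and counts over all genes under these settings are not given for the other cell sets. The block changed no other count of members, and replicate numbers are only names here, since deviations from the genotype means correlated at 0.024, 0.066 and 0.437 between same-numbered libraries and only replicate 3 correlated best with its own number. The T-like share kept its direction in 12 of 12 settings (0.201 to 3.95 points), and 3 members were higher in T-like cells in all 12. The T-like to epithelial log2 ratio of H2-DMa reversed at a mitochondrial limit of 10% (0.18, from -0.38), where those of H2-K1, H2-D1 and B2m rose to 2.08, 2.29 and 2.43. Shares of cells with a UMI moved in all 22 settings: for any class II UMI in epithelial cells from 40.2% to 66.8% thinned to 3000 UMIs and 76.5% not thinned. Leaving out a stem-like Fpr2f/f library left 1, assumed to vary like the others. Few T-like and tuft-like UMIs limit the class II values there.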
